A study of Rattus norvegicus with 28 samples.

Results

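Acute phase proteins of the liver and the receptor chain of interleukin 6 (IL-6) were followed in rat hepatocytes exposed to ligands of the aryl hydrocarbon receptor (AHR). The genes were Il6r, Il6st, Socs3, Lbp, Crp, Cp, A2m, Hp, Orm1 and Hpx, that is 10 of the 37773 gene names on the array. They were chosen by name, through the RefSeq record given for each non-control probe, and 13 probes carried such a record. A further 3 probes were tied to these genes by other entries of the array's annotation and were kept apart under their records: M84368, described as a fragment of the A2m messenger, M34230, described as the first exons of Hp, and Y12178, which has the gene name Cp but is described as bilitranslocase. All 10 genes passed the filter on dim probes, and 6 of them (Il6r, Il6st, Socs3, Lbp, Crp and Cp) were within the range of the scanner.

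The cells came from a pair of rats, both adult females of the Sprague-Dawley stock and named A and B here. They were grown on Matrigel in medium with ITS+ (insulin, transferrin and selenium) and 0.1 uM dexamethasone for 48 h before exposure. All groups, controls included, thus had insulin and a glucocorticoid in the medium. Exposure lasted 24 h, to TCDD (a dioxin) at 0.01 or 1 nM, to TCDF (a furan) at 0.1 or 10 nM, or to PeCDF (a more chlorinated furan) at 0.02 or 2 nM. Exposed cells and vehicle cells alike had 0.1% DMSO, and untreated cells had neither compound nor DMSO. RNA of 3 dishes was pooled per animal and group, and each of the 28 arrays set a test RNA against the DMSO RNA of the same animal. Each of the 7 test groups had 4 arrays, 2 animals in 2 dye orientations, so n = 2 animals for every value unless stated. Whether the same DMSO preparation served every array of an animal is not stated, and p-values cover only the spread between these animals. The doses differed between compounds, and the scans of TCDD and of the furans were read on different days, grouped here as 2 sessions. Compounds are therefore given side by side and were not tested against each other.

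In the acute phase response, IL-6 from macrophages binds the receptor subunit Il6r on hepatocytes, the pair engages the signalling subunit Il6st (gp130), and JAK kinases activate the transcription factor STAT3. STAT3 raises secreted proteins such as A2m, Hp, Hpx and Lbp, together with Socs3, which inhibits the receptor complex in return. Glucocorticoids strengthen this response in cultured hepatocytes. AHR binds DNA with its partner ARNT at the core letters GCGTG.

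Upstream sequence was supplied for 7 of the 10 genes (RefSeq, GRCr8). The 250 bases before the annotated start are printed for Il6r and Crp, the members with the largest decreases, and for Socs3, which did not pass any test, with GCGTG on either strand in capitals (CACGC where it lies on the other strand). Il6r is at chr2:177645210-177645459 on the minus strand, Socs3 at chr10:103694769-103695018 on the minus strand, and Crp at chr13:87693812-87694061 on the plus strand.
Il6r: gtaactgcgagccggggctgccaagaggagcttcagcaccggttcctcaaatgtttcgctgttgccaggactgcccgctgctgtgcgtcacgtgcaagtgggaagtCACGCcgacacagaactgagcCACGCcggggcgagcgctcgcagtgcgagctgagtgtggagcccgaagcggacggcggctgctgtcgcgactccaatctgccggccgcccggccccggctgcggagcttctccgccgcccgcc
Socs3: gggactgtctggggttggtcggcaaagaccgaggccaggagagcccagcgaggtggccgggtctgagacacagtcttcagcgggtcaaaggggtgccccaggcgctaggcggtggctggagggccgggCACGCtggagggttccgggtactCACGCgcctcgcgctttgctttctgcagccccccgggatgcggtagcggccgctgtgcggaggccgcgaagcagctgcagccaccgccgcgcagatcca
Crp: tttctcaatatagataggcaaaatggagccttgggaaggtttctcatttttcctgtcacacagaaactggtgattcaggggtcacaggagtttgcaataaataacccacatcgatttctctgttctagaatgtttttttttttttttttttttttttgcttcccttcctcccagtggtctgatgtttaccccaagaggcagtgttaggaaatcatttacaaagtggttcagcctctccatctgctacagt
Il6r held 2 such cores, 123 to 119 and 144 to 140 bases before the start, and Socs3 held 2, at 99 to 95 and 122 to 118 bases. Orm1 held 1, at 62 to 58 bases, and Il6st, Crp, Cp and Hpx held none in these windows. Thus 3 of 7 members held the core, beside 25.9% of the 33469 promoters supplied. The spaced element TTCNNNGAA, as STAT proteins bind, was in 0 of the 7 windows and in 7.67% of all. These are matches of letters in short windows, not measured binding sites.

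A2m, the main acute phase protein of the rat and a protease inhibitor, Hp, which binds free haemoglobin, Hpx, which binds heme, and Orm1, a carrier of drugs and lipids in plasma, were all at the ceiling of the scanner. Every test channel of these genes was saturated (28 of 28), as were 26 of 28 DMSO channels for A2m, Hp and Hpx and 28 of 28 for Orm1. Signals of the 4 genes lay between 62070 and 65510 in the DMSO channel and between 65190 and 65280 in the test channel. A change in these 4 genes was therefore not measurable in any group, and no fold is given. Their ratios lay between -0.23 and 0.25 (log2, per animal), and within an animal and group the 4 genes differed from each other by at most 0.04.

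**Figure D1:**
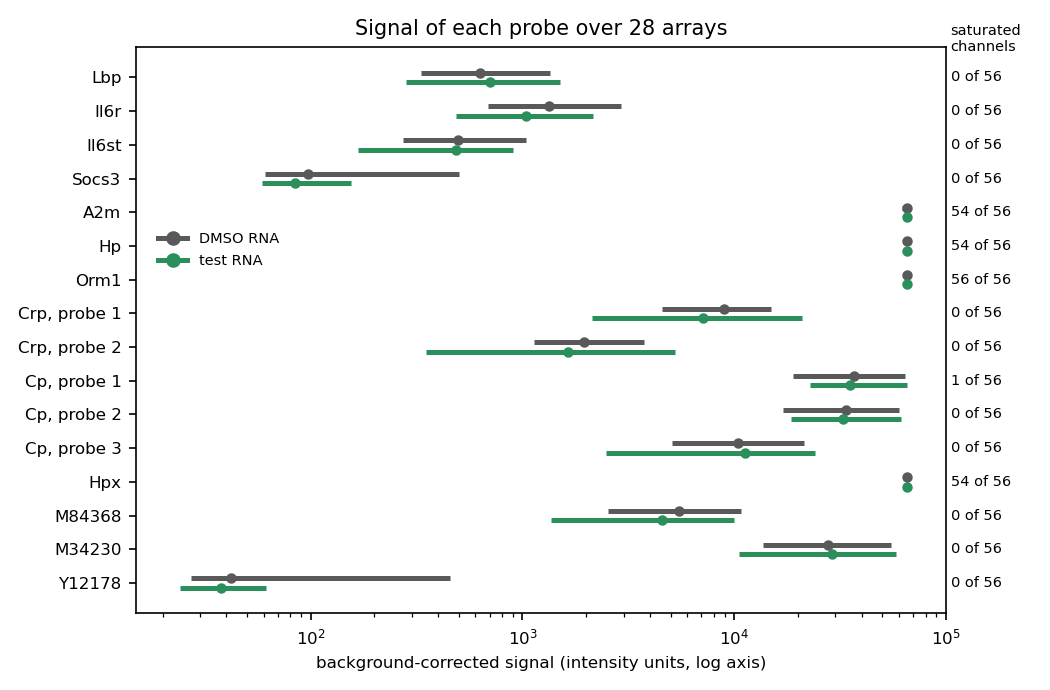
Background-corrected signal of each probe over 28 arrays (log axis, intensity units), with bars from the lowest to the highest array and points at the median, for DMSO RNA and test RNA. A2m, Hp, Orm1 and Hpx sit at the ceiling with 54 to 56 of 56 channels saturated, and of the other probes only Cp probe 1 had a saturated channel (1 of 56).

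Each of the remaining probes was well above background on all 28 arrays in both channels. Median DMSO signals were 629 for Lbp (range 333 to 1345), 1339 for Il6r (685 to 2921), 495 for Il6st (272 to 1045) and 97.0 for Socs3 (60.6 to 500), and they are not comparable between probes. Socs3 and Y12178 (median 42.0) were the dim probes. The highest DMSO value of both came from a single array, TCDF 10 nM of animal A with the test RNA in Alexa555. The DMSO channel of that array had a raised floor, with a 1st percentile of 429 beside 3.07 to 29.0 in the other 55 channels. The AHR target Cyp1b1, an oxidising cytochrome, was higher with TCDD 1 nM by 3.93 ± 0.15, with TCDF 10 nM by 2.07 and with PeCDF 2 nM by 2.78 (log2), and 5 of 5 measured AHR targets were higher with TCDD 1 nM.

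With TCDD 1 nM the receptor subunit Il6r and the secreted protein Crp fell, and Lbp, which hands bacterial lipopolysaccharide to CD14, rose. Il6r was 1.61-fold lower, Crp 2.64-fold lower and Lbp 1.38-fold higher than in DMSO cells. Il6st, Socs3 and Cp did not pass the test. A gene was called changed at a Benjamini-Hochberg adjusted p under 0.05 from limma over all genes, and 3 of the 6 measured members were called, beside 10.6% of all genes tested.

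**Figure D2:**
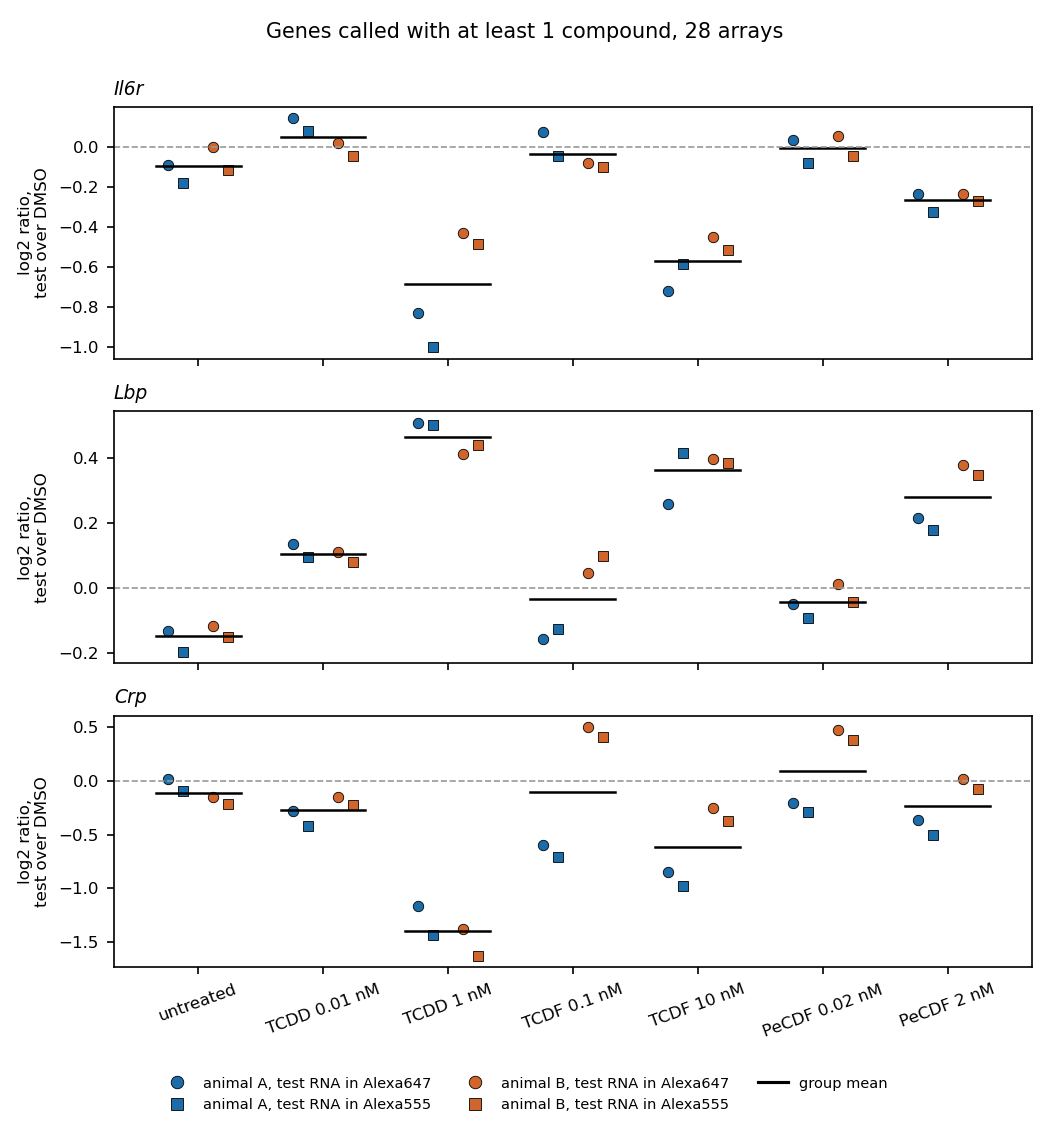
Log2 ratio of test over DMSO RNA on each of the 28 arrays for Il6r, Lbp and Crp, by group, with colour for the animal, shape for the dye of the test RNA and a line at the group mean. All arrays with TCDD 1 nM lie below 0 for Il6r and Crp and above 0 for Lbp, and the arrays of TCDF 0.1 nM split by animal for Crp.

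Il6r is the subunit that makes hepatocytes responsive to IL-6. Its log2 ratios with TCDD 1 nM were -0.83 and -1.0 in animal A and -0.43 and -0.49 in animal B, a mean of -0.69 ± 0.09 (SE; adjusted p = 0.000712). With TCDF 10 nM they were -0.72 and -0.59 in A and -0.45 and -0.52 in B, a mean of -0.57 ± 0.09 or 1.48-fold lower (adjusted p = 0.00893). The arrays of both upper doses lay below every array of the untreated and lower dose groups, which ranged from -0.18 to 0.14. How many other genes separate in this way is not given here.

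With PeCDF 2 nM the ratios of Il6r were -0.24 and -0.33 in A and -0.24 and -0.27 in B. Its mean was -0.27 ± 0.09 and did not pass the test (adjusted p = 0.124), though it did in the fit of the second session alone (0.0385). Of all genes 31.9% had the same sign on all 4 arrays of this group, and for Il6r all 4 were below 0, with little spread between the animals. Without animal A the adjusted p with TCDF 10 nM was 0.256 (log2 ratio -0.48), and without animal B it was 0.0532 (-0.65).

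Il6st, the signalling subunit that Il6r shares with other cytokine receptors, was not called in any comparison of the animal-level ratios. On the arrays of TCDD 1 nM its ratios were -0.02 and -0.16 in animal A and -0.53 and -0.67 in animal B (mean -0.34 ± 0.14, adjusted p = 0.172). With TCDD 0.01 nM they were 0.29 and 0.15 in A and 0.39 and 0.32 in B (mean 0.29 ± 0.14, adjusted p = 0.529). The arrays of both doses did not overlap, the lower dose being above 0 and the upper below. Over all genes, 21.7% had the same sign on all 4 arrays at the lower dose and 31.2% at the upper. The share of genes whose doses separate like this is not given here. For Il6st, TCDF 10 nM gave -0.08 ± 0.14 and PeCDF 2 nM 0.09 ± 0.14, with the animals on opposite sides of 0 in each.

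Socs3, the feedback inhibitor of the receptor complex, had group means between -0.06 and 0.01, each ± 0.03, and no group was called. Its array values lay between -0.13 and 0.14 over all 28 arrays. The 95% interval of its log2 ratio with TCDD 1 nM was -0.12 to 0.01. The probe was dim, and the offset added before taking logs draws the ratios of dim probes toward 0, so these intervals do not bound the change of the messenger itself.

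**Figure D3:**
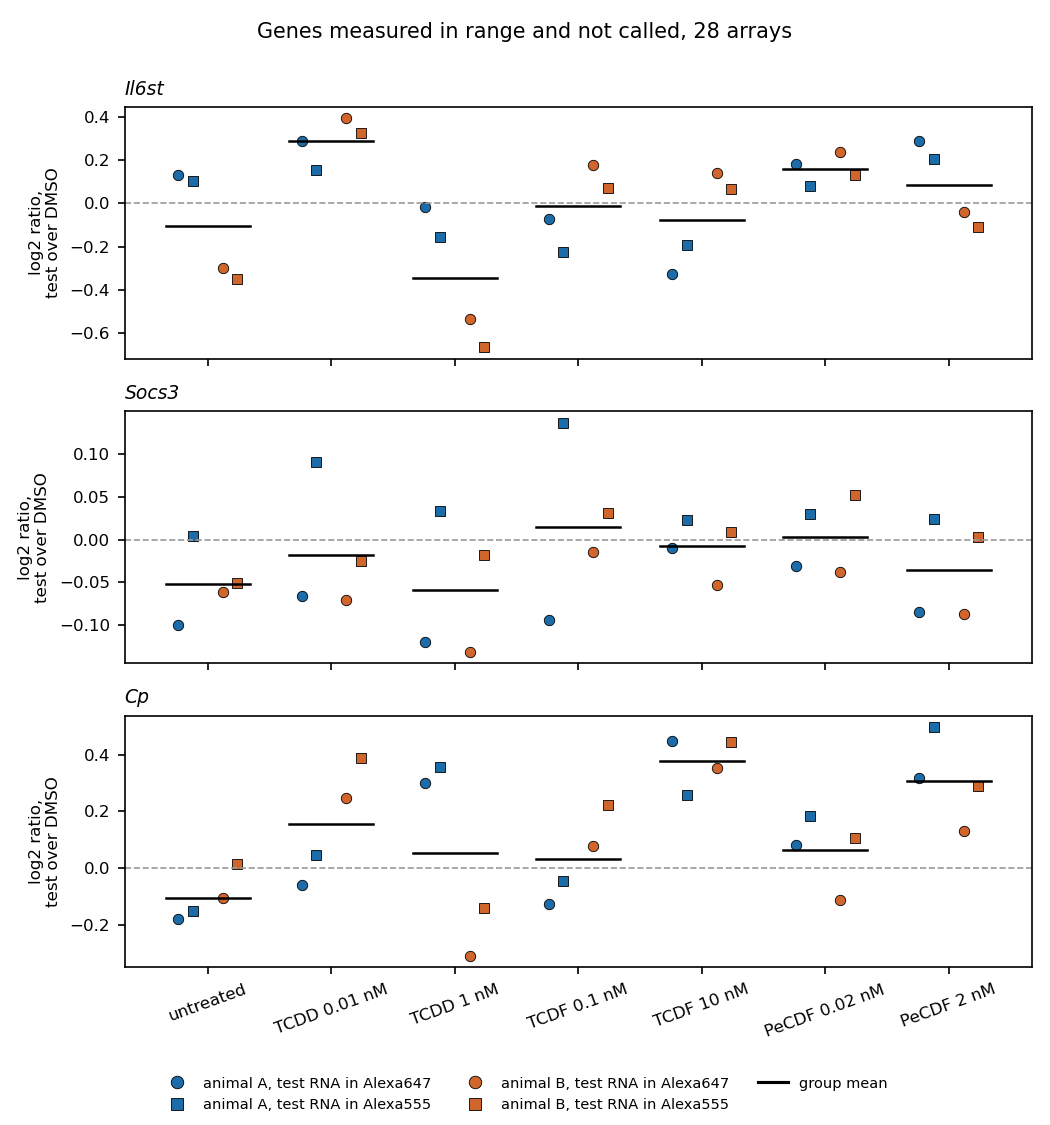
Log2 ratio of test over DMSO RNA on each of the 28 arrays for Il6st, Socs3 and Cp, drawn by group with animal, dye and group mean marked, each panel on its own scale. Il6st is above 0 on all arrays with TCDD 0.01 nM and below 0 on all with TCDD 1 nM, Socs3 stays within -0.13 to 0.14, and Cp with TCDD 1 nM splits by animal.

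Lbp rose with the upper dose of each compound. Its ratios with TCDD 1 nM were 0.51 and 0.50 in animal A and 0.41 and 0.44 in animal B (mean 0.47 ± 0.05, adjusted p = 0.000417). With TCDF 10 nM they were 0.26 and 0.42 in A and 0.40 and 0.39 in B, which is 0.36 ± 0.05 or 1.29-fold higher (adjusted p = 0.00822). PeCDF 2 nM gave 0.22 and 0.18 in A and 0.38 and 0.35 in B, which is 0.28 ± 0.05 or 1.21-fold higher (adjusted p = 0.0173). The 12 arrays of the upper doses, at 0.18 to 0.51, lay above the 16 arrays of the other groups, at -0.19 to 0.13. As for Il6r, the share of all genes separated in this way is not given.

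TCDF 10 nM thus had 2 called members (Lbp and Il6r), beside 2.37% of all genes tested, and PeCDF 2 nM had 1 (Lbp), beside 4.45%. Either animal alone lost the calls of Lbp: its adjusted p with TCDF 10 nM was 0.135 without A and 0.114 without B, and with PeCDF 2 nM 0.0737 and 0.235. In the fit of the second session alone, Lbp with PeCDF 2 nM had an adjusted p of 0.062.

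Crp, C-reactive protein, which binds phosphocholine on microbes and damaged cells, had the largest decrease among the members with TCDD 1 nM. Its brighter probe gave -1.16 and -1.43 in animal A and -1.38 and -1.63 in animal B (mean -1.40 ± 0.24, adjusted p = 0.0041). The other probe gave -1.49 ± 0.28 (adjusted p = 0.00705 over all probes). Both probes thus put Crp low in both animals, though without animal B the brighter one had an adjusted p of 0.0757 (log2 ratio -1.30).

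TCDF 10 nM gave -0.85 and -0.98 for Crp in animal A and -0.25 and -0.37 in animal B (mean -0.61 ± 0.24, adjusted p = 0.296). With the animal within session as a replicate block this comparison passed (adjusted p = 0.0157). With PeCDF 2 nM the ratios were -0.36 and -0.50 in A and 0.01 and -0.07 in B (mean -0.23 ± 0.24). The lower doses of the furans split by animal: TCDF 0.1 nM gave -0.60 and -0.71 in A but 0.50 and 0.41 in B, and PeCDF 0.02 nM -0.20 and -0.29 in A but 0.47 and 0.38 in B.

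By the brightest probe of each gene, Crp was the member in which the animals lay farthest apart. The difference of animal B over A was 1.11 with TCDF 0.1 nM (log2), where the median absolute difference over all genes was 0.08 and the 95th percentile 0.36. It was 0.67 with PeCDF 0.02 nM and 0.61 with TCDF 10 nM, beside 95th percentiles of 0.25 and 0.24. With TCDD 1 nM the members that differed most by animal were Cp (-0.55), Il6st (-0.51) and Il6r (0.46), beside a 95th percentile of 0.38.

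**Figure D4:**
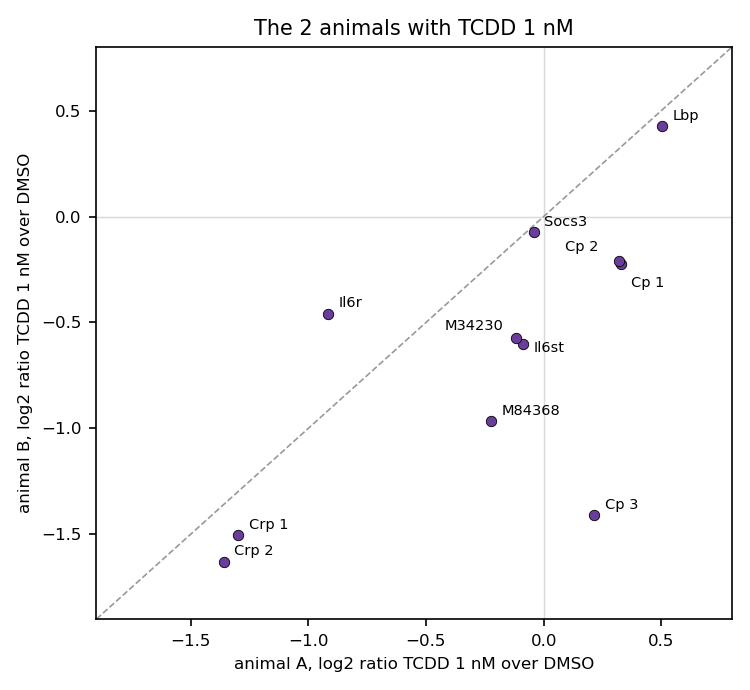
Log2 ratio of TCDD 1 nM over DMSO in animal B against animal A for each probe within the range of the scanner except Y12178, with a dashed line where the animals are equal. Lbp and both Crp probes lie near the line, whereas Cp probe 3 is at 0.21 in A and -1.41 in B.

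Cp, the copper-carrying ferroxidase ceruloplasmin, was not called in any group. Its brightest probe had 0.45 and 0.26 in animal A and 0.35 and 0.45 in B with TCDF 10 nM (mean 0.38 ± 0.12, adjusted p = 0.169). PeCDF 2 nM gave 0.32 and 0.50 in A and 0.13 and 0.29 in B (0.31 ± 0.12, adjusted p = 0.202). All 8 of these arrays were above 0. Over all genes, 26.2% with TCDF 10 nM and 31.9% with PeCDF 2 nM had the same sign on all 4 arrays. For Cp, 1 of the test channels with TCDF 10 nM was saturated. With TCDD 1 nM the same probe was at 0.30 and 0.36 in A but -0.31 and -0.14 in B (0.05 ± 0.12).

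The other probes of Cp did not all follow the brightest. Probe 2 gave 0.06, 0.39 and 0.31 with TCDD 1 nM, TCDF 10 nM and PeCDF 2 nM. Probe 3 gave 0.15 and 0.28 in animal A but -1.45 and -1.37 in animal B with TCDD 1 nM, a mean of -0.60 ± 0.31 that did not pass (adjusted p = 0.294). The level of Cp with TCDD 1 nM thus depends on the probe and the animal.

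The 2 probes that may stand for saturated genes were within range. M84368, described as A2m, was lower with TCDD 1 nM, at -0.03 and -0.42 in animal A and -0.79 and -1.14 in animal B (-0.60 ± 0.12, adjusted p = 0.0122). TCDF 10 nM gave -0.23 ± 0.12 and PeCDF 2 nM -0.11 ± 0.12, neither called. M34230, described as Hp, was not called in any group, with -0.35 ± 0.18 at TCDD 1 nM (adjusted p = 0.289) and 0.24 ± 0.18 at PeCDF 2 nM. Neither probe carries a RefSeq record of the gene, so these values are not counted as A2m or Hp. Y12178 had group means between -0.12 and 0.07, each ± 0.04, and none was called.

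**Figure D5:**
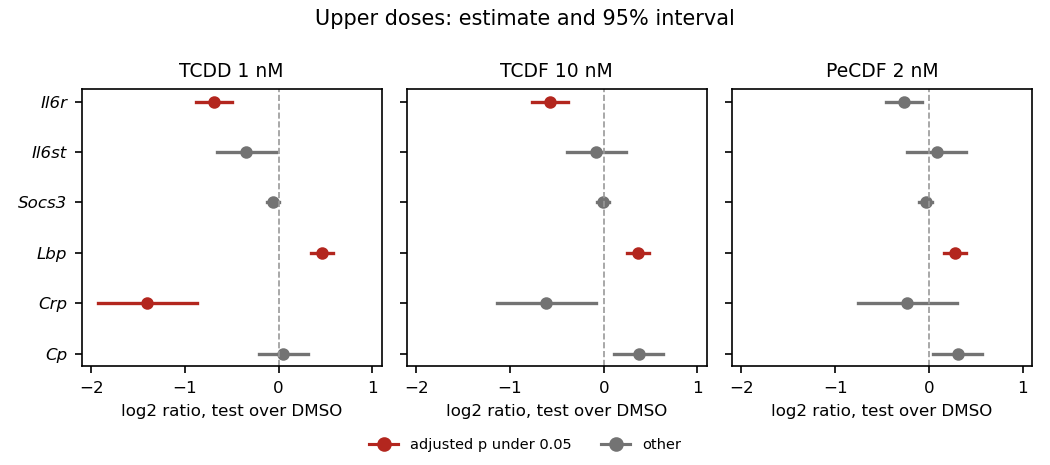
Group mean of the log2 ratio of test over DMSO RNA at the upper dose of each compound, with 95% intervals from limma before adjustment over genes, for the members within range (brightest probe). Crp, at -1.40, is the lowest and Lbp, at 0.47, the highest with TCDD 1 nM, and the dose differs between compounds.

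Between the doses of TCDD, which are 100-fold apart, Lbp rose by 0.36 ± 0.08 (log2; adjusted p = 0.0272) and Il6r fell by 0.74 ± 0.12 (adjusted p = 0.00932). These were 2 called members of 6, beside 3.74% of all genes tested. Crp differed by -1.13 ± 0.34 (adjusted p = 0.108, and 0.0033 with the animal within session as a replicate block), and Il6st by -0.63 ± 0.20 (adjusted p = 0.129). M84368 fell by 0.81 ± 0.18 (adjusted p = 0.0315). Without animal A the step of Lbp was 0.33 (adjusted p = 0.197) and that of Il6r -0.44 (0.0505), and without animal B that of Lbp was 0.39 (0.156). In the first session alone Il6r had 0.0792 and Crp 0.013.

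Between the doses of TCDF, Lbp differed by 0.40 ± 0.08 (adjusted p = 0.178, and 0.0336 with the animal within session as a replicate block) and Il6r by -0.53 ± 0.12 (adjusted p = 0.312). For PeCDF these differences were 0.32 ± 0.08 (adjusted p = 0.263) and -0.26 ± 0.12. By limma 0 members were called in either step, beside 0.0891% of all genes for TCDF and 0.0833% for PeCDF. At an unadjusted p under 0.05 there were 2 members (Lbp and Il6r) and 1 (Lbp), beside 4.54% and 5.15% of all genes.

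Untreated cells and the lower doses had 0 called members by limma. The shares of all genes called were 0.0431% for untreated cells, 0.451% for TCDD 0.01 nM, 0.00287% for TCDF 0.1 nM and 0% for PeCDF 0.02 nM. At an unadjusted p under 0.05 there was 1 member in untreated cells, Lbp, with all arrays between -0.19 and -0.12 (mean -0.15 ± 0.05, adjusted p = 0.342). No member was under it at a lower dose, where Il6r had means of 0.05, -0.04 and -0.01 and Lbp of 0.11, -0.03 and -0.04 (TCDD, TCDF and PeCDF, ± 0.09 and ± 0.05).

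Over the 14 animal-level ratios the genes most like Lbp were Cul4b, a scaffold of ubiquitin ligases (r = 0.96), Slc11a2, an iron transporter (0.95), and Rcan2, a regulator of calcineurin (0.94). Their log2 ratios stood, with TCDD 1 nM, at 0.27, 0.49 and 0.44. Those most like Il6r were Slc25a47, a mitochondrial carrier of the liver (r = 0.94), the glycolytic enzyme Gpi (0.92) and Stat3 (0.92). Their log2 ratios with TCDD 1 nM were -1.07, -0.34 and -0.25. These were the closest of 14708 genes with a symbol, and the ratios compared share arrays and DMSO RNA, so the correlations are descriptions only.

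Of 30 measured genes around IL-6 signalling (cytokines, receptors, kinases and transcription factors), 6 rose and 3 fell with TCDD 1 nM, where 10.6% of all genes were called (1623 higher and 2068 lower). The median log2 ratio of these 30 was 0.04, beside -0.00 for all genes. Map3k8, a kinase of the inflammatory cascade, rose by 1.88 ± 0.20, Nfkb1, a subunit of NF-kB, by 0.99 ± 0.10, and Il1r1, the interleukin 1 receptor, by 0.35 ± 0.04. The leptin receptor Lepr, which signals through STAT3 as well, fell by 0.55 ± 0.07, and Stat3 fell by 0.25 ± 0.04 (adjusted p = 0.00463). With TCDF 10 nM 1 rose (Il1r1, 0.22 ± 0.04) and 1 fell (Stat3, by 0.28 ± 0.04), and with PeCDF 2 nM 1 rose (Il1r1, 0.24 ± 0.04). Il6 itself was at 0.00 ± 0.04 with TCDD 1 nM and was not called in any group. The signal of its probe is not given here, and the offset draws ratios of dim probes toward 0. Its value therefore does not bound the change of the messenger.

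Among 9 measured genes of endotoxin recognition, which LBP serves, Cd14 rose with each upper dose and Scarb1, a lipoprotein receptor that also binds lipopolysaccharide, fell with TCDD 1 nM. Cd14, the receptor to which LBP passes lipopolysaccharide, was at 0.64 ± 0.15 with TCDD 1 nM (adjusted p = 0.0242), 0.68 ± 0.15 with TCDF 10 nM (0.0495) and 0.63 ± 0.15 with PeCDF 2 nM (0.0489). Scarb1 fell by 0.25 ± 0.04 (adjusted p = 0.00371). The median of the 9 genes with TCDD 1 nM was 0.03. Of all genes tested, 10.6% were called with TCDD 1 nM, 2.37% with TCDF 10 nM and 4.45% with PeCDF 2 nM. The calls of Cd14 with the furans lay close to the threshold.

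Of 26 other measured acute phase proteins, most of which rise in that response, 1 rose and 6 fell with TCDD 1 nM (10.6% of all genes called). Of the 12 with at most 1 saturated channel 1 rose and 3 fell, with a median of -0.24. Apcs, serum amyloid P and a relative of Crp, fell by 0.86 ± 0.08 (adjusted p = 9.29e-05), Hamp, the iron hormone hepcidin, by 0.47 ± 0.09, and the secreted Fgl1 by 0.27 ± 0.05. Il1rn, the antagonist of interleukin 1, rose by 0.33 ± 0.05. With TCDF 10 nM Apcs fell by 0.35 ± 0.08 and Hamp by 0.46 ± 0.09, and with PeCDF 2 nM none of the 26 was called. Of 15 proteins that fall in the acute phase, such as albumin, 0 rose and 1 fell with TCDD 1 nM: Igf1, by 0.40 ± 0.06, with 6 saturated channels.

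Markers of several cell types were called with TCDD 1 nM as well, where 10.6% of all genes tested were called. With TCDD 1 nM 5 of 12 hepatocyte markers were called lower (Asgr1, an uptake receptor, at -0.38 ± 0.04) and 1 higher, Apob at 0.53 ± 0.09. The calls were 1 higher and 5 lower of 16 Kupffer cell and leukocyte markers (Lyz2 -0.60, Vsig4 -0.48, and Cd14 the higher one), 0 and 3 of 11 for stellate cells (Vim -0.75), 0 and 0 of 8 for endothelium, and 0 and 2 of 9 for bile duct cells (Anxa13 -1.35, Prom1 -0.49).

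The summed signal of the markers, test over DMSO in each animal with TCDD 1 nM, was 0.863 to 0.893 for hepatocytes (Alb, Ttr, Apoa1 and Arg1 in part saturated), 0.913 to 0.918 for Kupffer cells and leukocytes, 0.821 to 0.856 for stellate cells, 0.970 to 0.985 for endothelium and 0.735 to 0.811 for bile duct cells. With TCDF 10 nM these ratios were 0.755 to 1.00, 0.911 to 0.945, 0.873 to 0.886, 0.910 to 0.985 and 0.849 to 0.919 in the same order, with the array of raised floor left out. Animal A then rests on its Alexa647 array alone, on which the saturated A2m read -0.81 (log2). A dye effect on the saturated hepatocyte markers is thus not balanced there, and the hepatocyte range with TCDF 10 nM is not a reading of the treatment alone. The partly saturated markers had median DMSO signals of 58290 to 65210, beside at most 33250 for the other hepatocyte markers. They weigh most in the hepatocyte sum, so its ratio is not a full reading of these markers in any group. With PeCDF 2 nM the ratios were 0.940 to 1.01, 0.907 to 1.03, 0.891 to 0.965, 0.830 to 0.991 and 0.869 to 0.961. Untreated cells, in the same order, had 1.043 to 1.05, 0.887 to 0.935, 0.956 to 0.9925, 1.025 to 1.072 and 0.973 to 0.974. The Kupffer cell and leukocyte ratio with TCDD 1 nM thus lay within the range of untreated cells. No list had a marker below background on every array, and the Kupffer cell markers Clec4f (median DMSO signal 1569) and C1qb (4839) were well above background in all 28 DMSO channels. The leukocyte marker Ptprc had a median of 42.5 and the endothelial Pecam1 of 13.0. Fewer cells of a type and less RNA per cell cannot be told apart in these bulk samples, and the part of other cells in the changes of Lbp, Il6r and Crp was not tested.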

How the data were processed

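The authors deposited scanner files of 28 Agilent 2-colour arrays whose mean signal and median background of each spot are an intensity, with Alexa555 in the green channel and Alexa647 in the red, per the file headers. The authors' series values are log10 ratios, which differed from the scanner's log10 ratio, turned to test over DMSO, by at most 4.995e-06. Feature Extraction 7.5.1 read the scans per the file headers, and the submitters' processing notes give 9.1. The headers place these readings on 4 days. The days were grouped here into 2 sessions, the first with untreated and TCDD arrays and the second with the furans. The headers name no session, and within a session the day coincides with the dye orientation.

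With R 4.3.3, limma 3.58.1, statmod 1.5.0 and the data.table package (version 1.17.8), intensities were corrected by normexp (offset 50) and normalized by loess on each array, with 2256 control spots at weight 0. Marked spots were dropped (1067, 0.0921%), spots of a probe averaged, and both dye orientations of an animal averaged, which left 14 animal-level log2 ratios. A probe was kept if its test channel was well above background throughout some group (4 of 4 arrays) or its DMSO channel was in 14 of 28 (37824 of 41012 probes). The brightest probe stood for a gene, 34818 gene names were tested, and 7 group means were fitted together with eBayes (degrees of freedom 3.21 prior, 7 residual). A call is a p under 0.05 after Benjamini-Hochberg adjustment across the genes tested, and ± is the standard error. The fit was tested on simulated data.

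The groups share the same 2 animals. The difference of animal B over A correlated between groups from -0.39 to 0.56 over all genes (21 pairs of groups, median 0.12), from -0.00 to 0.56 within a session and from -0.39 to 0.29 across sessions, so the animal was also fitted as a replicate block, alone and within session. Named were all members and probes, up to 4 called genes of each list with the smallest adjusted p at an upper dose, markers where a check of cell types needed them, and the 3 genes with the highest Pearson correlation with Lbp and with Il6r. The members and lists were chosen with earlier results of these data known. In all 16 alternatives were run. Marker sums use normalized signals, offset included. The number of arrays limits the precision.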

Additional observations from a re-analysis of the deposited data

Results flagged for a closer look

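Il6st had all 4 arrays above 0 with TCDD 0.01 nM (0.15 to 0.39, mean 0.29) and all 4 below 0 with TCDD 1 nM (-0.67 to -0.02, mean -0.34), so the doses of 1 compound gave opposite signs. Over all genes, 21.7% had the same sign on all 4 arrays with TCDD 0.01 nM and 31.2% with TCDD 1 nM. How many genes had opposite signs at these doses is not given here, so whether Il6st is unusual cannot be judged. The test of the step between these doses gave -0.63 ± 0.20 for Il6st (limma adjusted p = 0.129), and animal B contributed the lowest arrays at the upper dose.

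The same gene with TCDD 1 nM (mean -0.34) and with PeCDF 0.02 nM (0.08 to 0.24 on all 4 arrays) had opposite signs as well. Of all genes, 21.9% had the same sign on all 4 arrays with PeCDF 0.02 nM, and the share with opposite signs in these groups is not given. Compound and dose both differ between these groups, and the difference was not tested. No single array stood apart from the other 3 of its group in the 42 sets of 4 arrays checked. Chance would mark about 1 in 20 if the arrays of a set were independent. They are paired by animal, so that rate does not hold and a single odd array could go unmarked.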

How the results depend on the processing

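Over 16 alternatives no called value changed sign. Centring each array on its median in place of loess left 0 called members with TCDD 1 nM (3 with loess), TCDF 10 nM (2), PeCDF 2 nM (1) and in the TCDD step (2). The values behind the lost calls were 0.53 for Lbp, -0.62 for Il6r and -1.30 for Crp with TCDD 1 nM (adjusted p = 0.178, 0.12 and 0.054), 0.78 for Lbp and -0.12 for Il6r with TCDF 10 nM (0.0627 and 0.535), 0.36 for Lbp with PeCDF 2 nM (0.763), and 0.32 for Lbp and -0.78 for Il6r in the TCDD step (1.00 and 0.407). Fitting 28 arrays with a dye term gave 4 called members with TCDD 1 nM (Il6st passed, adjusted p = 0.0113), 4 with TCDF 10 nM, 3 with PeCDF 2 nM, 4 in the TCDD step, 2 in the TCDF step and 1 in the PeCDF step. That fit takes 4 arrays a group, tied by 1 estimated correlation between dye swaps, although a group has 2 animals. The scanner's log ratio and the deposited table each gave 0 with PeCDF 2 nM and 1 in the TCDD step, and no background correction gave 0 in that step. The animal within session as a replicate block gave 1 in the TCDF step. The animal alone as a block changed no call of a member. Without replicate A or B the counts were 0 and 0 with TCDF 10 nM, 0 and 0 with PeCDF 2 nM, and 0 to 1 in the TCDD step, where the lone animal is assumed to vary like the other groups. An alternative chosen after seeing the data, which took TCDF 10 nM of animal A without the array of raised floor, left the counts of members as they were (Lbp 0.32, adjusted p = 0.0156; Il6r -0.60, 0.00691). The cause of these shifts was not tested. Of 960 values of single members, 877 kept their call and moved little, 42 moved, 26 fell below the threshold and 15 passed it.

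Counts over all genes moved more: with TCDD 1 nM 3691 were called, 214 with array medians and 6433 with the dye term; with TCDF 10 nM 826, 9 and 2803; with PeCDF 2 nM 1548, 4 and 4501; in the TCDD step 1303, 6 and 3629. With the animal within session as a replicate block they were 5019, 1357, 2655 and 2216. Saturation limits A2m, Hp, Orm1 and Hpx, and low signal limits Socs3.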

Other observations

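The dye orientation left its own mark on single members. The mean of both orientations cancels it only where it is equal and opposite, which was not tested. For the 4 saturated genes the ratio with the test RNA in Alexa647 was below that with Alexa555 in each of 14 pairs of arrays, with a median difference of -1.86 (log2). In the other direction, both Crp probes were higher with Alexa647 in 14 of 14 pairs (median 0.11 and 0.22), as were M84368 (0.31) and M34230 (0.28). Socs3 was lower with Alexa647 in 14 of 14 (-0.09), and Lbp was higher in 10 of 14 (0.03). Il6r and Il6st were each higher in 13 of 14 (0.08 and 0.09), and the brightest Cp probe was higher in 1 of 14 (-0.11). A single array of these probes is therefore not a reading of the treatment alone.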
